A study of Mus musculus with 15 samples.

Results

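The libraries described here are the 5 titled as no-Cre controls, out of 15 in the series, and they were taken by their titles alone. They are RNA of cerebella from newborn C57BL/6 mice that carry 1 altered Gsk3a allele and 2 conditional (floxed) Gsk3b alleles and no Cre recombinase, so that both isoforms of glycogen synthase kinase 3 can still be made. The description of replicate 5 leaves out the Gsk3b genotype. The other groups, of 5 libraries each, are the Math1-Cre control, which has the same Gsk3a and Gsk3b alleles plus a Cre driven by the Math1 (Atoh1) promoter, so that only Gsk-3 beta is deleted and only in cells that have used that promoter, and the DKO, in which both isoforms are deleted in the same cells. The altered Gsk3a allele is thus shared by the no-Cre and Math1-Cre controls, and neither is a wild type. The age is given as postnatal day 1 in the sample labels and as day 2 in the growth protocol, and sex is not given. The sample names say whole cerebella. The design text adds a density gradient after dissociation to enrich progenitors of granule neurons, so each library is a mixture of cell types in which these may be over-represented. Biotin-labelled product of each library was read on 1 Affymetrix whole-transcript array, and with 5 arrays a group the spread of each value is known only roughly.

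The cerebellum of a newborn mouse is at the peak of its growth. Progenitors of granule neurons, marked by the transcription factor Atoh1, divide in the external granule layer under the influence of Sonic hedgehog from Purkinje cells. They leave the cycle, extend axons and migrate past Purkinje cells and Bergmann glia to the inner granule layer, where they mature over the following weeks. Purkinje cells, inhibitory interneurons, unipolar brush cells, neurons of the cerebellar nuclei, glia, vessels and meninges make up the rest of the tissue.

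Levels are log2 values as deposited, for 22180 genes. A row of an array binds its own transcript with its own affinity, so the level of 1 gene is not ranked against that of another. Each gene was set instead against the olfactory and vomeronasal receptor genes (symbols starting Olfr, Vmn1r or Vmn2r), which serve the nose and are taken here as the background of an array. There were 1394 of them, with medians of 3.62, 3.60, 3.50, 4.05 and 3.50 in no-Cre 1 to 5 and 95th percentiles of 4.85, 4.85, 4.70, 5.50 and 4.65. A gene is called above background when it exceeded the 95th percentile of its own library in all 5 libraries, at background when it did so in none, and mixed otherwise. By this rule 10913 of 22180 genes were above background (49.2%), 8981 were at background (40.5%) and 2286 were mixed. With the receptor genes left out the share above background was 52.4%, and among the 17614 protein-coding genes of these it was 58.5%. The listed genes are nearly all protein-coding, so their counts are to be read beside 58.5% as well as 49.2%. No-Cre 4 stood apart, with an interquartile range of levels of 4.00 against 4.33 to 4.40 in the other 4 and the highest receptor median. It had 10995 genes past its threshold, against 12539 to 12868, and 1356 of the 2286 mixed genes were under the threshold in no-Cre 4 alone. Without no-Cre 4, 12269 genes were above background. Correlations between the 5 libraries over genes ran from 0.987 to 0.996.

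The targeted genes were checked first against the labels. The row annotated to Gsk3a, which it shares with 9130221H12Rik, lay between 9.42 and 9.59 in the no-Cre libraries, with a mean of 9.50 ± 0.08, and Gsk3b between 10.61 and 10.84. Elsewhere in the series that row went against the label in 4 libraries. It read 8.25 and 8.03 in the libraries labelled Math1-Cre control 1 and 2, against 9.48 to 9.51 in the other 3 of that label, and 9.47 and 9.37 in those labelled DKO 1 and 3, against 7.89 to 8.27 in the other 3. None of the 4 is a no-Cre library. The Gsk3b row read 10.68 to 10.93 in the Math1-Cre libraries and 10.59 to 10.98 in the DKO libraries. These ranges overlap that of the no-Cre libraries, so the Gsk3b row does not tell the groups apart.

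**Figure D1:**
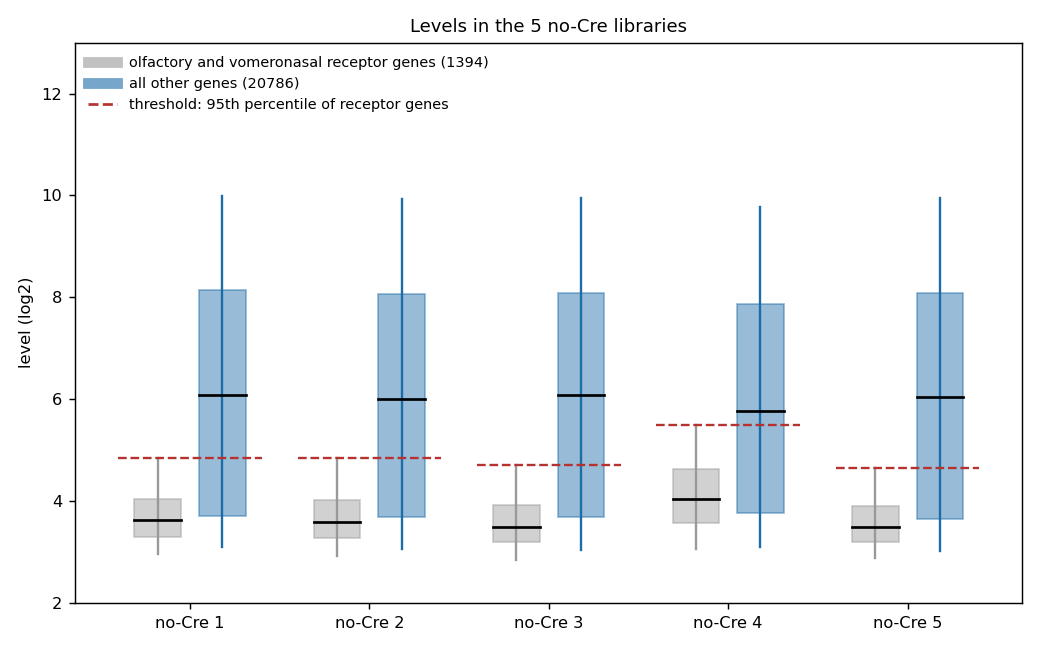
Levels (log2) in each of the 5 no-Cre libraries, for the 1394 receptor genes and all 20786 other genes; boxes give the quartiles with the median as a black line, whiskers the 5th and 95th percentiles, and dashed lines the threshold of each library. The threshold of no-Cre 4 is 5.50, above the 4.65 to 4.85 of the other libraries.

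A call at background does not show that a transcript is absent. Of 53 ribosomal protein genes with a row of their own, which every cell uses, 40 were above background, 6 were mixed and 7 were at background, among them Rpl30 at 3.72 ± 0.24 (SD, n = 5, as for all values given so) and Rps14 at 4.47 ± 0.18. A row of a gene in use can thus read at background. All 11 measured housekeeping genes were above background, such as Gapdh at 11.65 ± 0.09 and Tbp at 9.47 ± 0.08. In the other direction, 31 receptor genes were above background, led by Vmn1r233 (10.95 ± 0.34), Olfr310 (8.53 ± 0.12), Vmn2r58 (7.72 ± 0.49), Olfr484 (6.81 ± 0.22), Olfr128 (6.63 ± 0.30) and Olfr1226 (6.52 ± 0.14). Near the threshold, Olfr27 had a mean level 0.0022 above the mean threshold and Olfr1136 one at -0.0105 from it, and both were mixed. Of 15 genes of liver, pancreas, muscle, skin, testis and other tissues, 14 were at background and the other, Mup20, was mixed (4.84 ± 0.25). In these bulk samples, fewer cells of a type and less RNA per cell cannot be told apart.

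All 15 genes of the granule neuron progenitor list were above background, beside 49.2% of all genes. Atoh1, the defining factor of the lineage, read 9.22, 9.31, 8.94, 9.24 and 8.99 in no-Cre 1 to 5, far past the threshold in every library. Zic1, a zinc-finger factor of granule cells at all stages, read 11.51, 11.37, 11.21, 11.12 and 11.38. Neither gene had a library far from the rest, and the full range was 0.37 for Atoh1 and 0.39 for Zic1. Barhl1 and Pax6, homeodomain factors of the same cells, had means of 8.84 ± 0.22 and 9.34 ± 0.17.

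Genes of newborn granule neurons were nearly all above background. Of 14 genes expressed as these cells leave the cycle and migrate, 13 were above background. The microtubule protein gene Dcx stood at 11.09 ± 0.06, the adhesion gene Cntn2 at 8.91 ± 0.16, the early bHLH factor Nhlh1 at 8.60 ± 0.20 and Rbfox3 (NeuN) at 9.22 ± 0.11. Neurod1, a bHLH factor of differentiating granule neurons, was the exception. It read 5.73, 5.44, 5.13, 5.22 and 5.47 and fell short of the threshold in no-Cre 4 only. Its paralog Neurod2 stood at 9.27 ± 0.31.

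The genes of mature granule neurons divided, with 5 of 10 above background (50%, beside 49.2% of all genes and 58.5% of protein-coding genes). The GABA-A receptor subunits Gabra6 and Gabrd, which appear when granule neurons receive synapses, were at background. Gabra6 read 3.79, 3.64, 3.50, 3.95 and 3.61, close to the receptor median of every library, and Gabrd averaged 3.33 ± 0.04. The late NMDA receptor subunit Grin2c (4.75 ± 0.28), the synaptic organiser Cbln3 (5.48 ± 0.16) and the vesicular glutamate transporter Slc17a7 (5.15 ± 0.23) were mixed. The other 5 of the 10, Cbln1, Etv1, Calb2, Kcnd2 and Fat2, were above background, with Cbln1 at 10.66 ± 0.20 and Etv1 at 8.85 ± 0.27.

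**Figure D2:**
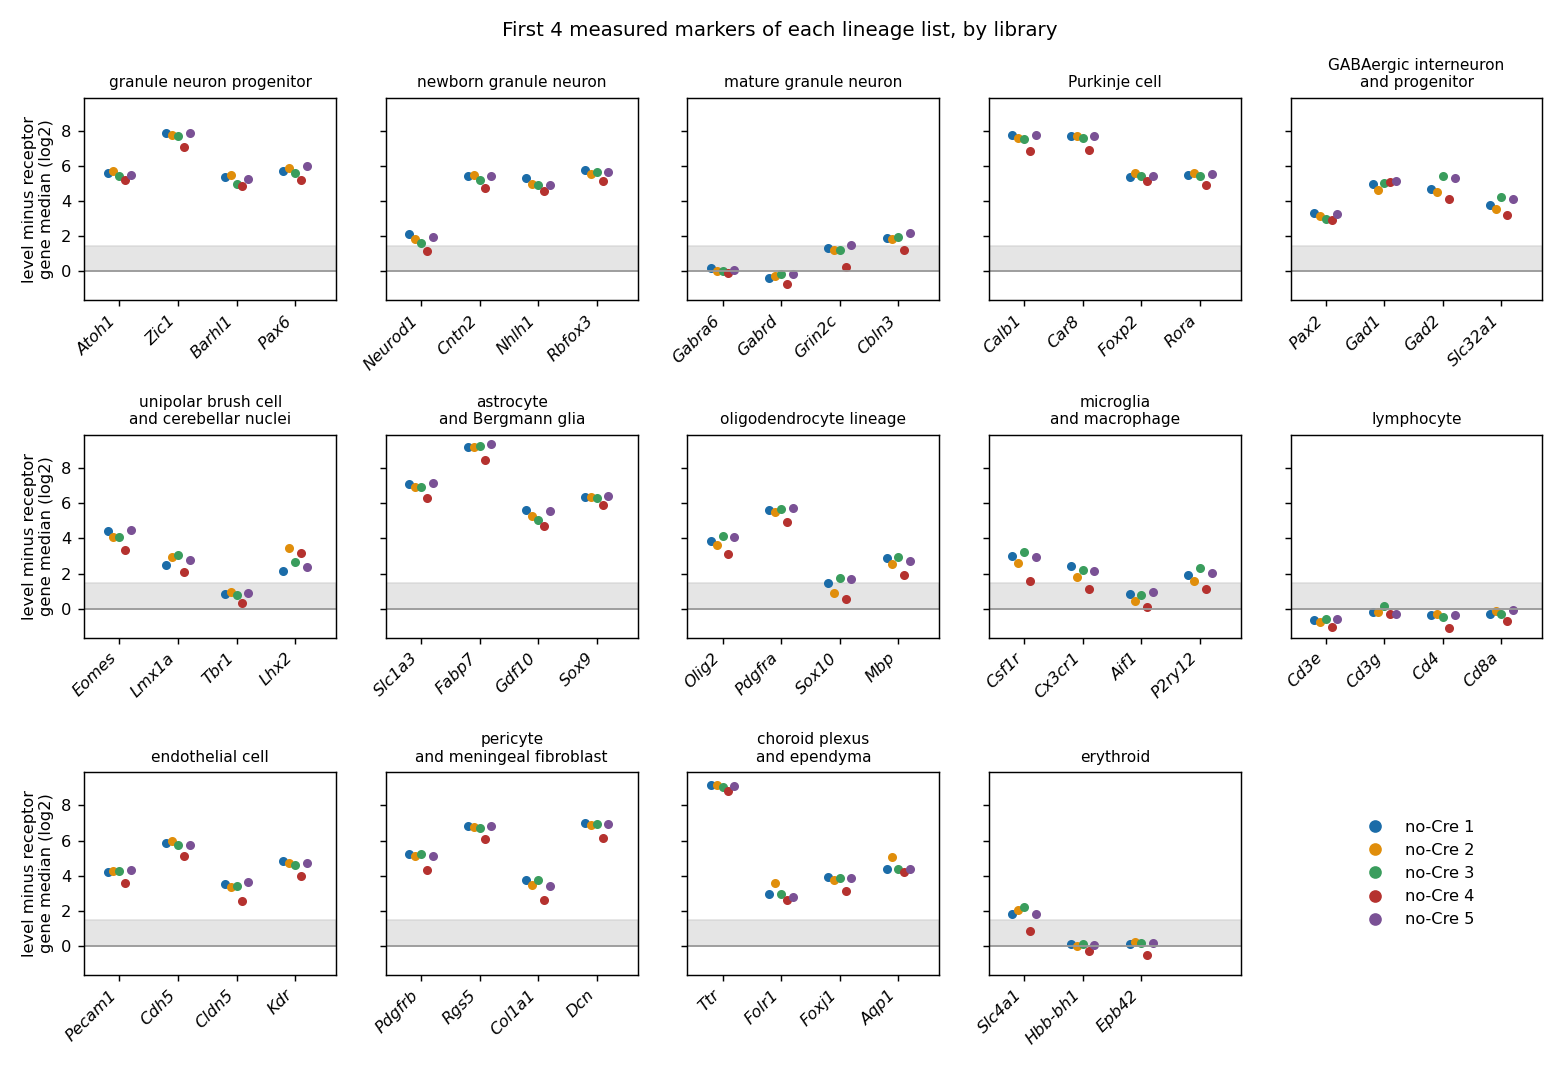
Level minus the receptor gene median of the same library (log2) for the first 4 measured genes of each of 14 lineage lists (3 for the erythroid list); each point is 1 no-Cre library. The shaded band runs from the receptor median to the largest distance between median and threshold, that of no-Cre 4, and the mature granule neuron, lymphocyte and erythroid genes lie in it, under it or near it.

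Of 14 genes of Purkinje cells, the sole output neurons of the cerebellar cortex, 12 were above background. Calb1, a calcium buffer used as their marker, read 11.37, 11.19, 11.05, 10.90 and 11.26, lowest in no-Cre 4. Car8 stood at 11.19 ± 0.17, Pcp4 at 12.25 ± 0.06, and the factors Foxp2 and Rora at 9.06 ± 0.14 and 9.04 ± 0.11. The 2 genes at background were Pvalb (4.30 ± 0.09), a calcium buffer of later Purkinje cells, and Ppp1r17 (4.16 ± 0.19).

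Of 9 genes of inhibitory interneurons and their progenitors, 8 were above background. Pax2, which marks interneuron precursors, stood at 6.77 ± 0.20, the GABA-synthesis genes Gad1 and Gad2 at 8.62 ± 0.33 and 8.48 ± 0.38, and the vesicular transporter Slc32a1 at 7.44 ± 0.24. Ptf1a, which specifies inhibitory neurons in the ventricular zone before birth, was mixed at 4.63 ± 0.28. Of 8 genes of unipolar brush cells and cerebellar nuclei 6 were above background, with Eomes at 7.74 ± 0.27 and Lmx1a at 6.33 ± 0.23, while the nuclear neuron factor Tbr1 (4.40 ± 0.10) and the rhombic lip factor Olig3 (4.04 ± 0.22) were at background. The LIM factors Lhx2 and Lhx9 of that list were uneven between libraries. Lhx2 read 5.78, 7.06, 6.16, 7.23 and 5.86 and Lhx9 read 6.56, 7.67, 7.14, 7.91 and 6.68, both highest in no-Cre 4 and next in no-Cre 2.

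Astrocytes and Bergmann glia, the radial glia along which granule neurons migrate, gave 13 of 16 genes above background. Fabp7 stood at 12.76 ± 0.13, the glutamate transporter Slc1a3 at 10.54 ± 0.17, Sox9 at 9.91 ± 0.07 and the Bergmann glia gene Gdf10 at 8.89 ± 0.27. Gfap, an intermediate filament of mature astrocytes, was at background with 4.56, 3.84, 4.27, 3.57 and 4.38, and S100b (4.33 ± 0.37) and Hopx (5.01 ± 0.26) were mixed. Aqp4, the water channel of astrocyte endfeet, was above background in every library but spread over 7.52 to 8.56, with no-Cre 2 and 4 low.

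Genes of the oligodendrocyte lineage did not share one call. Pdgfra, the receptor of oligodendrocyte precursors, which meningeal cells also express, stood at 9.14 ± 0.11, Olig1 at 8.33 ± 0.34 and Olig2 at 7.42 ± 0.21. Mbp (6.25 ± 0.23), Cnp (6.33 ± 0.24) and Gpr17 (5.96 ± 0.24) were above background too, while Sox10 (4.91 ± 0.35), Cspg4 (5.51 ± 0.26) and Myrf (4.62 ± 0.19) were mixed. The myelin genes Mog (3.11 ± 0.12) and Mag (3.50 ± 0.18) were at background. In all, 6 of 11 genes were above background by the rule (54.55%, beside 49.2% of all genes and 58.5% of protein-coding genes). With the 99th percentile of the receptor genes as threshold, 3 of 11 were.

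Microglial genes lay close to the threshold. Of 11, only C1qb (7.93 ± 0.22), Csf1r (6.32 ± 0.45) and Cd68 (6.33 ± 0.23) were above background. Another 6 were mixed, including Cx3cr1 (5.59 ± 0.33), P2ry12 (5.46 ± 0.27), Tmem119 (4.49 ± 0.36) and Trem2 (4.64 ± 0.49), and Aif1 (4.27 ± 0.18) and Itgam (3.44 ± 0.25) were at background. Without no-Cre 4, 6 of the 11 were above background, and with the 99th percentile as threshold 1 was. All 7 lymphocyte genes were at background, from 2.93 ± 0.06 for Cd3e to 3.48 ± 0.21 for Cd3g.

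Vessels and meninges were measured throughout, with 11 of 11 endothelial genes and 11 of 11 pericyte and meningeal genes above background. The endothelial cadherin Cdh5 stood at 9.36 ± 0.18, Kdr at 8.23 ± 0.18, Pecam1 at 7.78 ± 0.10 and the tight junction gene Cldn5 at 6.96 ± 0.23. The pericyte genes Rgs5 and Pdgfrb stood at 10.30 ± 0.12 and 8.66 ± 0.17, and the meningeal fibroblast genes Dcn and Col1a1 at 10.44 ± 0.15 and 7.05 ± 0.28. Ttr, the carrier protein that choroid plexus secretes, read 12.75, 12.77, 12.57, 12.88 and 12.60. Another 6 choroid plexus and ependyma genes were above background, among them Folr1 (6.61 ± 0.34), Aqp1 (8.13 ± 0.35) and Foxj1 (7.36 ± 0.14), and the ciliary genes Tmem212 (4.46 ± 0.41) and Ccdc153 (5.09 ± 0.09) were mixed. Of the 3 erythroid genes measured, Slc4a1 (5.41 ± 0.32) was mixed and Hbb-bh1 (3.64 ± 0.09) and Epb42 (3.68 ± 0.11) were at background. The adult globin genes were not analysed.

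**Figure D3:**
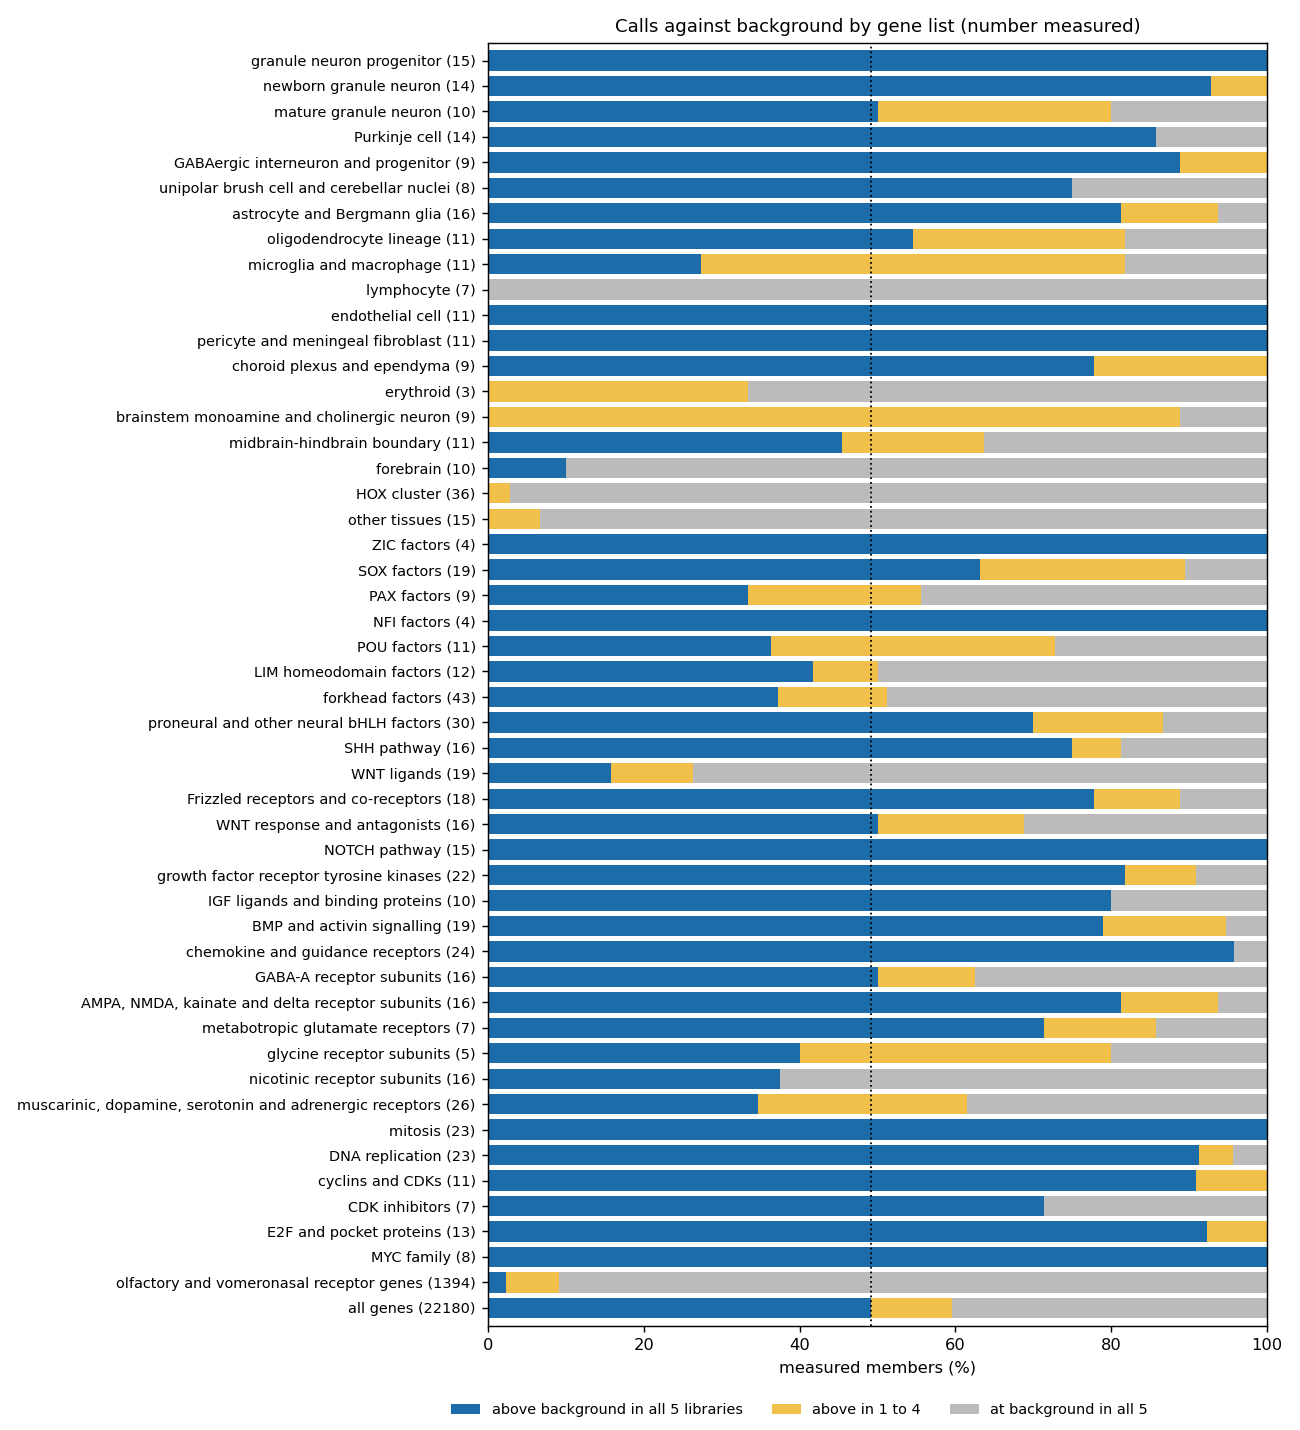
Share of each list's measured genes (number in brackets) that were above background in all 5 no-Cre libraries, above in 1 to 4 of them, or at background in all 5; the dotted line marks the 49.2% of all genes above background. Endothelial, pericyte, mitosis, ZIC, NFI, NOTCH and MYC lists are above background throughout, and lymphocyte, HOX, forebrain and other-tissue lists are almost wholly at background.

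Genes that mark position along the brain were measured next. The engrailed factors En1 and En2, which pattern the midbrain-hindbrain territory, stood at 7.88 ± 0.16 and 9.27 ± 0.18, with Gbx2 at 6.34 ± 0.26, Irx2 at 8.12 ± 0.11 and Irx3 at 6.34 ± 0.17. The signals that set up that boundary in the embryo, Fgf8 (4.38 ± 0.17), Fgf17 (3.91 ± 0.18) and Wnt1 (3.19 ± 0.09), and Pax8 (3.76 ± 0.48) were at background, and Pax5 (5.81 ± 0.73) and Lmx1b (5.11 ± 0.36) were mixed. In all 5 of 11 genes of this list were above background (45.45%, beside 49.2% of all genes). The count was 3 with the mean of a gene's rows and 3 with its lowest row. Of 36 HOX genes, which specify hindbrain behind the cerebellum and spinal cord, 35 were at background and none was above it. The other, Hoxa2, read 4.66, 4.93, 7.39, 4.59 and 4.31, high in no-Cre 3. Of 10 forebrain genes, 9 were at background, such as Emx1 (3.44 ± 0.17), Emx2 (3.35 ± 0.18) and Six3 (3.88 ± 0.28). Otx1 was the exception at 5.54 ± 0.33, and it was no longer above background with the 99th percentile as threshold.

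Families of transcription factors ranged from complete to sparse. All 4 measured ZIC factors were above background (Zic1, Zic2 at 10.90 ± 0.11, Zic4 at 7.90 ± 0.21, Zic5 at 9.14 ± 0.22), as were all 4 nuclear factor I genes (Nfia at 10.38 ± 0.18, Nfib at 11.24 ± 0.16, Nfix at 8.87 ± 0.20, Nfic at 7.52 ± 0.10), which act in granule neuron differentiation. Of 30 neural bHLH factors and their partners, 21 were above background. Among them were Atoh1, Nhlh1 and the Notch target Hes5 (8.52 ± 0.12), while Neurog1 (3.69 ± 0.36), Neurog3 (2.91 ± 0.05), Ascl2 (3.02 ± 0.12) and Olig3 were at background.

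SOX factors were above background in 12 of 19 cases (63.16%, beside 49.2% of all genes and 58.5% of protein-coding genes). Sox1 (8.82 ± 0.18) and Sox2 (9.83 ± 0.28) of neural stem cells and glia, Sox4 (10.20 ± 0.12) and Sox11 (8.87 ± 0.18) of young neurons and Sox9 were among them. Sox3 (5.51 ± 0.18), Sox10, Sox15 (4.68 ± 0.22) and the endothelial factors Sox17 (5.11 ± 0.11) and Sox18 (4.94 ± 0.13) were mixed, and Sox7 (4.39 ± 0.21) and Sox30 (3.75 ± 0.07) were at background. Of 9 PAX factors only Pax2, Pax3 (8.83 ± 0.24) and Pax6 were above background (33.33%). Pax5 and Pax7 (5.70 ± 0.69) were mixed, and Pax1 (2.96 ± 0.14), Pax4 (3.96 ± 0.13), Pax8 and Pax9 (2.80 ± 0.06) were at background. With the 90th percentile of the receptor genes as threshold, 5 of 9 were above background.

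The LIM factors above background were Lhx1 (9.40 ± 0.07) and Lhx5 (7.34 ± 0.15) of Purkinje cells, Lhx2, Lhx9 and Lmx1a. They are 5 of 12 (41.67%, beside 49.2% of all genes). Isl1 (4.53 ± 0.17), Isl2 (3.04 ± 0.06), Lhx3 (2.92 ± 0.09), Lhx4 (3.94 ± 0.43), Lhx6 (4.63 ± 0.05) and Lhx8 (2.89 ± 0.21) were at background. Of 11 POU factors, Pou3f2 (7.87 ± 0.04), Pou3f3 (8.61 ± 0.07), Pou3f4 (5.99 ± 0.12) and Pou6f1 (8.62 ± 0.08) were above background (36.36%). Forkhead factors were above background in 16 of 43 cases, under the 49.2% of all genes. They included the broadly used Foxk1 (9.02 ± 0.08), Foxj2 (8.99 ± 0.08) and Foxp1 (9.00 ± 0.07), the mitotic factor Foxm1 (7.80 ± 0.10), the ciliary factor Foxj1 and the meningeal factor Foxc1 (6.55 ± 0.07). Foxa2 (3.56 ± 0.19), Foxa3 (3.13 ± 0.16) and Foxb1 (4.32 ± 0.19) were at background, and Foxa1 passed the threshold in no-Cre 3 alone, at 4.75.

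The Sonic hedgehog pathway was measured on its receiving side. Its 3 ligands were at background, with Shh at 3.62 ± 0.17, Ihh at 3.23 ± 0.18 and Dhh at 3.02 ± 0.05. The receptor and target Ptch1 read 10.22, 10.07, 10.10, 9.88 and 10.23, the transducer Smo 9.23 ± 0.13, and the co-receptors Boc and Cdon 9.88 ± 0.20 and 7.20 ± 0.12. The target Gli1 stood at 6.45 ± 0.26, Gli2 at 8.22 ± 0.25 and the antagonist Hhip at 7.32 ± 0.25. Of 16 genes 12 were above background, and Kif7, a ciliary regulator of Gli proteins, was mixed (4.68 ± 0.28).

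WNT genes were counted by role. Of 19 ligands, 14 were at background and 3 above it, Wnt5a (7.32 ± 0.17), Wnt3 (6.43 ± 0.28) and Wnt7b (6.40 ± 0.12). Of 18 Frizzled receptors and co-receptors 14 were above background, with Fzd3 at 9.18 ± 0.09, Lrp6 at 9.65 ± 0.14 and Ryk at 9.87 ± 0.04, and Fzd5 (4.37 ± 0.14) and Fzd10 (4.46 ± 0.08) were at background. The targets Axin2 (7.05 ± 0.06), Lef1 (6.92 ± 0.21), Nkd1 (8.75 ± 0.26) and Sp5 (6.92 ± 0.21) were above background, and Notum (3.43 ± 0.11), Dkk1 (3.53 ± 0.05), Dkk2 (4.05 ± 0.31), Dkk4 (2.97 ± 0.13) and Sfrp5 (3.15 ± 0.22) were at background. Axin2 was among the steadier genes, with 7.14, 7.07, 7.02, 7.02 and 6.98.

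All 15 NOTCH pathway genes were above background, receptors (Notch1 at 8.71 ± 0.15, Notch2 at 8.70 ± 0.15), ligands (Jag1 at 7.71 ± 0.22, Dll1 at 6.07 ± 0.23) and targets (Hey1 at 9.15 ± 0.18) alike. Of 22 growth factor receptor kinases 18 were above background, with Igf1r at 9.37 ± 0.13, Fgfr1 at 9.77 ± 0.18, Egfr at 9.07 ± 0.19, the neuregulin receptor Erbb4 at 10.20 ± 0.34 and the neurotrophin receptors Ntrk2 and Ntrk3 at 9.47 ± 0.11 and 9.71 ± 0.06. Erbb3 (4.13 ± 0.24) and Met (4.07 ± 0.38) were at background. Fgfr3, mixed, read 4.64, 4.60, 5.82, 4.52 and 5.71, past the threshold in no-Cre 3 and 5 alone. The insulin-like growth factor list gave 8 of 10, with Igf2 at 8.41 ± 0.11 and Igf1 at 7.53 ± 0.29, and Igfbp1 (3.64 ± 0.12) and Igfbp6 (4.04 ± 0.30) at background.

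Of 19 BMP and activin genes 15 were above background, among them the receptors Bmpr1a (9.01 ± 0.16) and Bmpr2 (11.33 ± 0.16) and the ligands Bmp6 (8.52 ± 0.12) and Bmp7 (8.76 ± 0.11), while Bmp2 (3.61 ± 0.16) was at background. Of 24 chemokine and axon guidance receptors 23 were above background. Cxcr4, which holds granule progenitors under the meninges that secrete Cxcl12 (9.06 ± 0.27), read 9.53, 9.44, 9.08, 9.14 and 9.24. The netrin receptors Dcc and Unc5c stood at 10.60 ± 0.14 and 10.42 ± 0.18 and the slit receptor Robo1 at 10.06 ± 0.12. Robo3, used by axons before they cross the midline, was the 1 gene at background, at 3.25 ± 0.19.

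Neurotransmitter receptors differed by family. Of 16 ionotropic glutamate receptor subunits 13 were above background, with Gria2 at 11.06 ± 0.13, Gria4 at 9.74 ± 0.15, Grik2 at 10.03 ± 0.16 and Grin2b, the NMDA subunit of young neurons, at 8.81 ± 0.16. Its later counterparts Grin2a (5.38 ± 0.33) and Grin2c were mixed, and Grin3b (3.29 ± 0.28) was at background. Of 16 GABA-A subunits 8 were above background (50%, beside 49.2% of all genes and 58.5% of protein-coding genes). Among them, Gabra3 stood at 9.56 ± 0.25, Gabra4 at 8.66 ± 0.15, Gabra5 at 9.13 ± 0.44 and Gabrb2 at 9.13 ± 0.13. Gabra2 read 8.99, 8.72, 8.12, 7.20 and 8.85, lowest in no-Cre 4. Among 5 glycine receptor subunits, Glra2 (10.08 ± 0.23) and Glrb (9.42 ± 0.25), the subunits of immature neurons and of synaptic anchoring, were above background. Of 7 metabotropic glutamate receptors 5 were above background, with Grm3 at 10.92 ± 0.19 and Grm5 at 9.14 ± 0.30.

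Nicotinic receptor subunits were above background in 6 of 16 cases (37.5%, beside 49.2% of all genes), and no member was mixed. Those 6 were the neuronal subunits Chrna3, Chrna4 (8.06 ± 0.15), Chrna5 (6.40 ± 0.18), Chrna7 (6.96 ± 0.27), Chrnb2 (8.94 ± 0.10) and Chrnb4 (7.16 ± 0.34). Chrna3 read 10.19, 9.86, 9.70, 9.70 and 9.90. At background were 10 subunits, among them the muscle subunits Chrna1 (3.43 ± 0.12), Chrnb1 (3.59 ± 0.25), Chrnd (3.16 ± 0.13), Chrne (3.12 ± 0.18) and Chrng (3.27 ± 0.20). The rest of the 10 are not muscle subunits, so not every subunit outside muscle was above background. Of 26 muscarinic, dopamine, serotonin and adrenergic receptors 9 were above background (34.6%), among them Chrm3 (8.13 ± 0.23), Htr1b (8.23 ± 0.17), Htr2c (8.19 ± 0.24) and Drd2 (7.06 ± 0.33).

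Cell cycle genes were almost complete. All 23 mitosis genes were above background in all 5 libraries. Mki67, the proliferation marker, read 9.80, 9.49, 9.21, 9.20 and 9.41, highest in no-Cre 1. Top2a stood at 9.19 ± 0.18, the kinases Aurka and Bub1 at 7.51 ± 0.24 and 7.93 ± 0.21 and Cdk1 at 9.77 ± 0.22. The mean of the 23 genes was 8.38, 8.36, 8.10, 7.98 and 8.19 in no-Cre 1 to 5, highest in no-Cre 1 and lowest in no-Cre 4. Of 23 replication genes 21 were above background, with Mcm2 at 8.63 ± 0.12, Pcna at 10.89 ± 0.16 and Rrm2 at 8.60 ± 0.24, Gmnn was mixed (5.32 ± 0.19) and Fen1 was at background (4.16 ± 0.12). Of 11 cyclins and cyclin-dependent kinases 10 were above background, including Ccnd1 (9.19 ± 0.23), Ccnd2 (10.07 ± 0.20) and Cdk4 (11.07 ± 0.13), and the germline cyclin Ccna1 was mixed (5.44 ± 0.50).

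Among the 7 inhibitors of these kinases, Cdkn1b (8.83 ± 0.17) and Cdkn1a (9.73 ± 0.15), Cdkn1c (7.06 ± 0.16), Cdkn2c (6.54 ± 0.23) and Cdkn2d (6.70 ± 0.23) were above background. Cdkn2a (3.39 ± 0.12) and Cdkn2b (3.79 ± 0.16), neighbours in the genome that are linked to senescence, were at background. The E2F and pocket protein list gave 12 of 13, with E2f1 at 8.30 ± 0.22 and Rb1 at 10.29 ± 0.12 and E2f2 mixed at 5.06 ± 0.20. All 8 MYC family genes were above background, with Mycn, the family member of granule progenitors, at 7.81, 7.52, 7.39, 7.53 and 7.58. Of 13 immediate early genes, which respond within minutes to activity or handling, 6 were at background, among them Fos (3.18 ± 0.12), Fosb (2.97 ± 0.05) and Npas4 (4.28 ± 0.35). Jun (9.31 ± 0.19), Jund (9.05 ± 0.11), Dusp1 (8.16 ± 0.09) and Nr4a1 (6.01 ± 0.18) were above background.

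Promoters were compared next, because they are a property that the call does not use. RefSeq windows from 250 bases before to 50 after the start (assembly GRCm38.p6) were matched by symbol for 15378 protein-coding genes. The observed over expected frequency of CpG, the dinucleotide that is depleted outside CpG islands, passed 0.5 in 84.2% of 8412 genes above background and in 20.7% of 4372 genes at background, with receptor genes left out of both, and in 57.6% of all 15378 windows. Mixed genes fell between, at 60.0%, and the receptor genes themselves were at 1.18%. The GC box GGGCGG (either strand) stood in 67.1% of windows above background, in 48.7% of all windows and in 24.7% of those at background. The TATA box TATAAA (either strand) stood in 6.22% of windows above background, in 12.9% of all and in 19.2% of those at background. Single lists did not all follow. The ratio passed 0.5 in 14 of 20 HOX and 7 of 8 forebrain windows, from lists almost wholly at background. It did so in only 3 of 8 endothelial and 5 of 12 newborn granule neuron windows. Mitosis (20 of 20), replication (15 of 18), progenitor (8 of 9), housekeeping (8 of 9) and other-tissue windows (0 of 12) went with the call. Atoh1 and Zic1 had ratios of 0.84 and 0.97 and Gabra6 one of 0.16. The 250 bases before their starts are shown as examples of high and low ratios, 5′ to 3′ on the gene's strand, with each CpG in capitals. There are 14 in Atoh1 (chr6:64728875-64729124, plus strand), 27 in Zic1 (chr9:91365769-91366018, minus strand) and 2 in Gabra6 (chr11:42321073-42321322, minus strand).
Atoh1: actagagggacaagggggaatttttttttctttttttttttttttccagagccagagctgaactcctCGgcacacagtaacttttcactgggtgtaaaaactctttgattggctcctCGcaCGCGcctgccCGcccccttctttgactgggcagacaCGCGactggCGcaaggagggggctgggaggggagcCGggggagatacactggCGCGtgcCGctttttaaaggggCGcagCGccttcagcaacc
Zic1: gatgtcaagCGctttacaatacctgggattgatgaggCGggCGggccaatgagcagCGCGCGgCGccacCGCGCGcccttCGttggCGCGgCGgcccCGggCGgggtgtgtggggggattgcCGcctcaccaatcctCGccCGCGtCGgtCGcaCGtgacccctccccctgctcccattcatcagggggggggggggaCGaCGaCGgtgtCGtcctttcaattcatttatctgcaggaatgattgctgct
Gabra6: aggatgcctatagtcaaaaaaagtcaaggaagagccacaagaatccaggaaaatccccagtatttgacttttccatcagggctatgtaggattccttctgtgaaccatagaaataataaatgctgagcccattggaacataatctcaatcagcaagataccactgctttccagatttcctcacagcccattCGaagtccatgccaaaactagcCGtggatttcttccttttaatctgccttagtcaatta

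**Figure D4:**
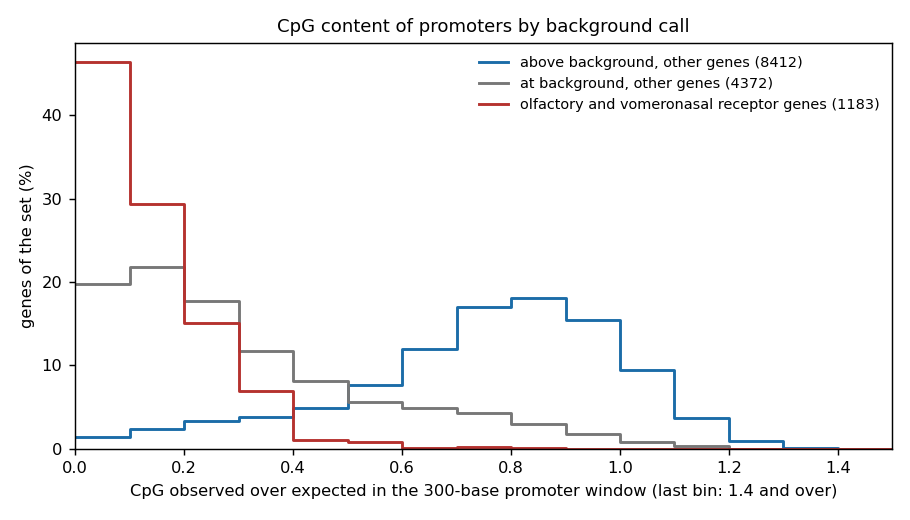
Share of genes (%) by CpG observed over expected in the 300-base promoter window, in bins of 0.1, for genes above background, genes at background and receptor genes. Genes above background centre on a median of 0.787 and genes at background on 0.242, and the receptor genes lie almost wholly under 0.5 with a median of 0.107.

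The windows of mitosis genes shared short motifs. The cell cycle homology region TTTGAA, on either strand, stood in 16 of 20 mitosis windows against 15.5% of all protein-coding windows, and CCAAT, on either strand, in 17 of 20 against 38.5%. The E2F motif TTTGGCGC, on either strand, stood in 5 of 18 replication windows against 0.728% of all. These matches are a description of letters and not of binding. The 250 bases before the start are shown for 3 mitosis genes, with both motifs in capitals. Mki67 (chr7:135716380-135716629, minus strand) holds TTTGAA 2 times and CCAAT 3 times, and Top2a (chr11:99024190-99024439, minus strand) holds them 2 and 6 times. Bub1 (chr2:127831860-127832109, minus strand) holds CCAAT 2 times and no TTTGAA in this window.
Mki67: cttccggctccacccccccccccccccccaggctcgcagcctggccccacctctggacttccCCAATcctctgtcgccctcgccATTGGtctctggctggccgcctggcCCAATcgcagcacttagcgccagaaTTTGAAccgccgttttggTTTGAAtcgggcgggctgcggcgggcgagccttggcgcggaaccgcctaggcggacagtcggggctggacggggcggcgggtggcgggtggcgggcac
Top2a: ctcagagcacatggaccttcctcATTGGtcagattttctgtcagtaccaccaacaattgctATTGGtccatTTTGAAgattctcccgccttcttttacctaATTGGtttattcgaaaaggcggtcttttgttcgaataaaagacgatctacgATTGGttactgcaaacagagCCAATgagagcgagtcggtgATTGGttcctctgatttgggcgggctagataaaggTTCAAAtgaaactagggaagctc
Bub1: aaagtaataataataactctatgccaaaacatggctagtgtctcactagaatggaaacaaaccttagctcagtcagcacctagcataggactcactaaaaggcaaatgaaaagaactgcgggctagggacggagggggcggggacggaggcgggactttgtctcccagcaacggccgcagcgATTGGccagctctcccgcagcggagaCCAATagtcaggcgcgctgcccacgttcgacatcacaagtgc

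Calls also differed by kind of transcript. Of 17614 protein-coding genes, receptor genes left out, 58.5% were above background, of 1995 long noncoding genes 11.4%, of 81 small nucleolar RNA genes 74.1% and of 478 microRNA genes 30.8%. The microRNAs named here were chosen after their values were seen. A microRNA binds its targets through the seed, bases 2 to 8 of the mature strand. The rows lie on microRNA genes and can read the hairpin or its host transcript, so that the mature strand itself was not measured. The microRNA genes between Meg3 and Dio3 on chromosome 12, an imprinted locus, are expressed from the maternal allele in brain. Of these 43 genes, 31 were above background (72.1%), against 116 of the other 435 microRNA genes (26.7%). Mir329 read 8.35, 8.70, 9.08, 8.79 and 8.67 and Mir382 read 7.36, 7.84, 8.19, 7.50 and 7.84. No-Cre 3 was the highest library in 31 of the 43 genes, and the mean of the 43 was 6.29, 6.45, 6.81, 6.37 and 6.55.

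The 3 genes of miR-9, a microRNA of neural progenitors, were all above background, with Mir9-1 at 9.59 ± 0.35, Mir9-2 at 9.24 ± 0.27 and Mir9-3 at 6.37 ± 0.24, and they give the same mature strand. The let-7 family, which shares the seed GAGGUAG, divided. Of 10 let-7 genes listed with a strand of that seed, 2 were above background (Mirlet7c-1 at 7.15 and Mirlet7c-2 at 6.35). Another 4 were mixed and 4 were at background, among them Mirlet7a-1 (3.43) and Mirlet7i (3.54). Mirlet7a-2, at background too (4.04), is not in this count, because only its other strand is listed. Strands are shown from RefSeq as examples, with the seed in capitals. Those shown from the chromosome 12 locus differ in seed, but seeds also recur within that locus. There miR-379-3p and miR-411-3p share AUGUAAC, and miR-376b-5p and miR-376c-5p share UGGAUAU.
miR-9-5p: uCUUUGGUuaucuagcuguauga
let-7c-5p: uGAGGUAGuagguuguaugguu
let-7a-5p: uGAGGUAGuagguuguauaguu
let-7i-5p: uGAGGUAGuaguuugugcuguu
miR-329-3p: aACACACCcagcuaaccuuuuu
miR-382-5p: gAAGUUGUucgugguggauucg
miR-379-5p: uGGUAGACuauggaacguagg
miR-544-3p: aUUCUGCAuuuuuagcaagcuc

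Most genes varied little between the 5 libraries. Over 13199 genes above background in at least 1 library the median SD was 0.168, and 241 genes (1.83%) had an SD over 0.5. Among the 10913 above background in all 5 libraries, 70 did. In the Math1-Cre control the median SD of the same 13199 genes was 0.124 and 263 had an SD over 0.5, of which 79 were among the 241. The 1394 receptor genes, most of them at background, had a median SD of 0.260 here and 0.135 there. No-Cre 4, the library of narrow range, was the lowest of the 5 in 86 of the 241 genes and the highest in 57. Mixed genes made up 171 of the 241. The part of no-Cre 4 in the larger median SDs of the no-Cre libraries was not tested. The 5 genes of smallest SD were Cttn (9.37 ± 0.0022), Epn2 (7.58 ± 0.0025), Gramd4 (8.74 ± 0.0068), Vcam1 (7.75 ± 0.0070) and Ralgds (8.83 ± 0.010). Part of that closeness is exact equality. Vcam1 read 7.7446 in 4 of the 5 libraries, and 1529 of 22180 genes had the same value to 5 decimals in 2 or more no-Cre libraries. The smallest SDs include such ties.

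The largest spread belonged to sex-linked genes, and the libraries fell into those with Xist and those with Y-linked transcripts. Xist, the RNA that silences 1 X chromosome in females, read 4.84, 11.86, 11.79, 11.67 and 4.82. The Y-linked genes Eif2s3y, Uty and Kdm5d were high where Xist was low. Kdm5d read 8.15, 2.93, 2.96, 3.24 and 8.13, Eif2s3y 8.45, 3.35, 3.34, 3.39 and 9.25, and Uty 8.83, 3.38, 3.35, 3.55 and 8.74. No-Cre 1 and 5 thus carried the Y-linked transcripts and no-Cre 2, 3 and 4 Xist. In the rest of the series, the library labelled Math1-Cre control 1 had both, with Xist at 11.96 and Kdm5d at 8.46.

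The next largest spread was that of monoamine neuron genes, which belong to the raphe and locus coeruleus of the brainstem under the cerebellum. Slc6a4, the serotonin transporter, read 5.73, 3.42, 8.56, 5.89 and 7.08. Tph2, which makes serotonin, read 4.05, 3.14, 7.37, 4.49 and 6.06. Dbh, which makes noradrenaline, read 4.43, 4.78, 7.82, 3.71 and 7.28, and the noradrenaline transporter Slc6a2 4.18, 5.49, 7.82, 4.50 and 7.24. No-Cre 3 was highest and no-Cre 5 next in all 4 genes, as in Slc18a2 (4.85 to 7.94) and Th (3.79 to 5.95). The mean of the 9 genes of the list was 4.58, 4.24, 6.74, 4.42 and 6.03, a range of 2.49, the widest among the list means. The sex-linked mean (range 2.37) sets Xist against Y-linked genes that run the opposite way, so that its single genes ranged further. Chat, the enzyme of cholinergic neurons, was at background throughout (3.22 ± 0.15). In the Math1-Cre libraries the mean of the 9 genes ran from 4.02 to 6.71 and in the DKO libraries from 4.37 to 5.74.

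Many other uneven genes had the same 2 libraries on top. No-Cre 3 and 5 were the 2 highest in 81 of the 241 genes (33.6%), against 4 to 30 for each of the other 9 pairs of libraries, and no-Cre 3 alone was the highest in 104. The hormone receptor Calcr read 5.22, 3.99, 7.68, 5.28 and 6.71 and the diacylglycerol kinase Dgkk 7.41, 6.35, 9.22, 7.28 and 8.17. Otp, a homeodomain factor of hypothalamus and hindbrain, read 4.33, 4.29, 6.29, 5.03 and 6.13, and the orphan receptor Nr4a2, a factor of dopamine neurons, 5.82, 5.44, 6.91, 4.49 and 6.31. Rln3, a neuropeptide of the pontine nucleus incertus, was high in no-Cre 5 alone, at 6.91 against 2.88 to 4.40. Others were high in no-Cre 3 alone. Hoxa2 was given above, Atoh7 read 7.49 there against 4.73 to 5.39, the retinoic acid binding protein gene Crabp1 8.14 against 5.47 to 6.15, Lamp5 6.84 against 4.52 to 5.05, and Ccn3 6.96 against 4.70 to 5.68. The glycine receptor subunits Glra1 and Glra3 were highest in no-Cre 3 too, at 7.00 and 6.43. Beside these genes stands the mean of the monoamine list, highest in the same library at 6.74, and its part in them was not tested.

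Tfap2d ran the other way. This AP-2 factor, with known expression in the midbrain, read 6.00, 8.22, 5.69, 8.90 and 6.65, high in no-Cre 4 and 2 and lowest in no-Cre 3. Lhx2 and Lhx9 had the same 2 libraries on top, and no-Cre 2 and 4 were the 2 highest in 30 of the 241 genes (12.4%).

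**Figure D5:**
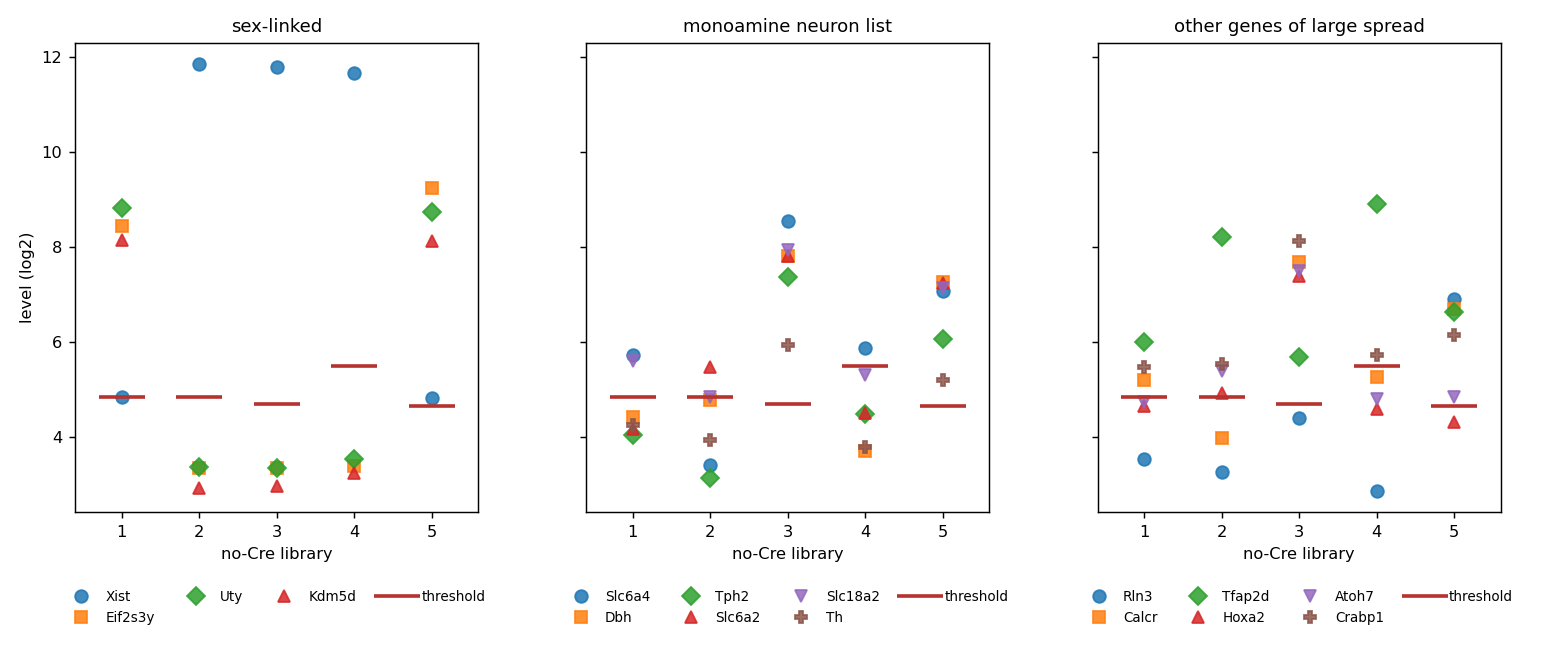
Levels (log2) by no-Cre library of sex-linked genes, of 6 monoamine neuron genes and of 6 other genes among the 20 of largest SD, with the background threshold of each library as a bar. Monoamine genes are highest in no-Cre 3 and next in no-Cre 5, and Y-linked genes are high in no-Cre 1 and 5.

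The set of genes above background was compared with the other groups. Their libraries entered the calls above only for genes with several rows, where the row was chosen by its mean over all 15 libraries. Of the 10913 genes, 10901 (99.9%) were also above background in all 5 Math1-Cre libraries, where 12211 genes were (55.1%), and 10439 (95.7%) in all 5 DKO libraries, where 10556 were (47.6%). DKO 3, 4 and 5 resembled no-Cre 4 in their range, with interquartile ranges of 4.06, 4.12 and 4.09, thresholds of 5.58, 5.39 and 5.52 and 10882 to 11415 genes past them, and the part of this in the DKO share and in the differences from the DKO was not tested. The 10901 shared genes are 89.3% of the Math1-Cre set and the 10439 are 98.9% of the DKO set. No gene was above background in all no-Cre and in no Math1-Cre library, or the reverse. Against the DKO, only Tcim, at 5.29 ± 0.27, was above background in all no-Cre and in none of the DKO libraries, and it was chosen after its values were seen.

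In one limma model over all 15 libraries, 0 of 22180 genes (0%) differed between the no-Cre and Math1-Cre controls at a Benjamini-Hochberg adjusted p under 0.05, with 716 at an unadjusted p under 0.05 and 725 with trend and robust moderation. No-Cre minus Math1-Cre was 0.47 ± 0.20 (SE) for Atoh1, 0.01 ± 0.08 for Zic1, 0.27 ± 0.19 for Mki67 and 0.07 ± 0.10 for Calb1, each with an adjusted p of 1.00. These values do not show that the groups are alike. The 23 mitosis genes had a median difference of 0.30 (0.17 to 0.44), with 6 at an unadjusted p under 0.05 and none called. With those 4 libraries of doubtful label left out the difference was 0.14 ± 0.17 for Atoh1 and -0.005 ± 0.16 for Mki67. The mitosis median was 0.05, and again 0 genes were called. Math1-Cre 3, 4 and 5, which remain, had Xist at 11.84 to 11.96 and Kdm5d at 2.96 to 3.01. No-Cre 1 and 5 carried Y-linked transcripts, so sex is unbalanced in this fit, and its part was not tested.

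Between no-Cre and DKO, 16 of 22180 genes were called (0.0721%), 12 higher and 4 lower in no-Cre, and none of the 729 listed genes was among them. No-Cre minus DKO was 0.71 ± 0.20 (SE) for Atoh1 (limma adjusted p = 0.116), 0.43 ± 0.19 for Mki67 (0.266), 0.25 ± 0.10 for Calb1 (0.229) and -0.01 ± 0.08 for Zic1 (0.968). Without the 4 libraries, 239 genes were called (1.08%), of which 25 listed genes were higher and 16 lower in no-Cre. No-Cre minus DKO was then 0.80 ± 0.17 for Atoh1 (limma adjusted p = 0.0495), 0.64 ± 0.12 for Mycn (0.0296), 1.20 ± 0.12 for Nhlh1 (0.000571), -1.28 ± 0.10 for Axin2 (3.73e-05) and -1.92 ± 0.15 for Lef1 (6.34e-05), genes named for their roles and not by rank. Of the 23 mitosis genes 7 were higher in no-Cre and none was lower, with a median of 0.61, against 0 called and a median of 0.50 over all 15 libraries. Leaving out no-Cre 4 alone gave 1546 calls and leaving out no-Cre 1, 2 or 3, or DKO 3, gave 0, so that the count rests on single libraries. The labels name no litter, and a p-value here reflects only how far these samples lie from each other, which may be technical. The 2 comparisons share the no-Cre libraries.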

How the data were processed

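Each of the 15 libraries is 1 array with a deposited column of log2 values. The authors normalized them by RMA (robust multi-array average), and Partek 6.6 and the mouse build mm9 are named too, per the submitters' processing notes. Their order and settings: not given in the sources used here. RMA normally includes a step that aligns the arrays' distributions of probe values. That step need not make the distributions of row values identical, and the deposited ones were not. The log2 values were used as deposited.

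Of 41345 rows, 23521 carried 1 gene symbol, 1814 carried several and 16010 none. Rows with 1 symbol gave 22180 genes, and where a gene had several rows (1082 genes) the row with the highest mean was used. Names matched RefSeq by gene ID for 23328 rows.

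Genes were described by 53 lists, of which 729 different genes were measured and 444 were above background. The members and lists were chosen with earlier results of these data known. Named genes are the 4 markers, Gsk3b, the first 4 measured members of each list with those whose call differs from most of the list (up to 6), the 20 genes of largest and the 5 of smallest SD and the 6 highest receptor genes. Other genes were named as examples after their values were seen. Groups were compared with limma 3.58.1 in R 4.3.3 (lmFit, eBayes, group means of all 15 libraries, 12 residual degrees of freedom, Benjamini-Hochberg adjustment over 22180 genes), and levels with Python 3.11.15, numpy 2.4.6, pandas 2.3.3 and matplotlib 3.10.9. Both steps were tested on simulated data. Other thresholds, normalizations, row rules, fits and left-out libraries were tried as alternatives.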

Additional observations from a re-analysis of the deposited data

Results flagged for a closer look

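Each of the 321 genes named in the text was tested for 1 library far from the other 4, by the gap to its nearest neighbour over the whole range of the 5 values (critical value 0.71). Chance flags about 1 in 20 such groups, and 23 of 321 genes (7.17%) were flagged. Many of these genes were named for their large or small spread or after their values were seen, so that this share cannot be read against chance.

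No-Cre 3 was high in 8 of them, with Atoh7 at 7.49, Crabp1 at 8.14, Gabra3 at 10.01, Glra1 at 7.00, Hoxa2 at 7.39, Lamp5 at 6.84, Lmx1b at 5.72 and Myrf at 4.94. It was low in Sox9, at 9.80. No-Cre 4 was low in 5, with Bmpr2 at 11.05, Cdkn2d at 6.30, Epn2 at 7.57, Fabp7 at 12.52 and Vmn1r233 at 10.35, and high in Olfr27 (5.94) and Vcam1 (7.76). Epn2 and Vcam1 are among the genes of smallest SD, so that these gaps are of 0.02 or less on the log2 scale.

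No-Cre 1 was high in Cdkn2b (4.06), Dio3 (3.58), Erbb3 (4.54) and Rbfox3 (9.42) and low in Gabrd (3.25) and Ihh (2.91). No-Cre 5 was high in Foxk1 (9.16). Of these 7 genes only Rbfox3 and Foxk1 were above background.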

How the results depend on the processing

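The number of genes above background ran from 9731 to 12425 over the alternatives that could change it: 9731 with the 99th percentile as threshold, 11600 with the 90th, 11802 with the receptor median plus 1, 12425 with means over libraries, 10718 and 10361 with the mean or the lowest row of a gene, and 10916 to 12269 with each library left out. The number of lists, of 53, whose count moved by more than 1.5 times was 3 at either percentile, 4 at the median plus 1, 8 with means over libraries, 2 with each row rule, and 4 without no-Cre 4. Quantile normalization keeps the order within an array, so the calls could not change under it, and it tests nothing here. The number of genes with an SD over 0.5 was 241, 259 after centring, 264 after quantile normalization, 232 with the mean of rows, 182 to 351 with each library left out, and 70 among genes above background in all 5 libraries, a smaller set.

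Against the Math1-Cre control 0 genes were called by limma in every alternative, the replicate block included, with 451 to 1766 at an unadjusted p under 0.05. Against the DKO the count was not stable: 16 in the fit reported, 127 with a filter on low values, 0 after quantile normalization (3502 at an unadjusted p under 0.05), 6 after centring, 33 with trend and robust moderation, 2 with only the 2 groups, 7 with the code cg1724 as covariate, 739 with array weights, 239 without the 4 libraries, and 0 to 1546 with each library left out. With the replicate number as a block it was 6. Correlations of same-numbered libraries' deviations ran from -0.293 to 0.122 against the Math1-Cre control and from -0.269 to 0.063 against the DKO. None was highest with its own number. With 5 pairs a group, these correlations cannot tell whether same-numbered libraries share a litter or handling. The cause of the moves in the DKO count was not tested.

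A row at background has only a bound, and in no-Cre 4 that bound is 5.50.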
